A study of Arabidopsis thaliana with 6 samples.

Results

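The auxin response of a plant cell is read by a short pathway, and its repressors and receptors were followed here in nuclei sorted from *Arabidopsis* flower buds. The 35 genes were taken by gene identifier, with earlier results of these data known, as the 29 Aux/IAA repressor genes (IAA1 to IAA20 and IAA26 to IAA34) and the 6 receptor genes TIR1 and AFB1 to AFB5. All 35 were among the 33341 genes of the count files, and 33 had enough reads to be tested. Aux/IAA proteins bind auxin response factors (ARFs) and hold their target genes silent by recruiting TOPLESS corepressors. Auxin acts as a glue between an Aux/IAA protein and a TIR1/AFB receptor, the F-box subunit of an SCF ubiquitin ligase, and the repressor is then degraded. Many Aux/IAA genes are themselves induced by auxin, and in flowers auxin response is known for its part in organ initiation and in vascular differentiation.

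All nuclei came from the floral induction system, which is plants of the Ler ecotype carrying pAP1:AP1-GR in the ap1-1 cal-1 double mutant, treated with 2 µM dexamethasone and collected when flowers were at stage 5. A nuclear envelope protein labelled with GFP (NTF) was driven by the AP3 promoter in the plants of one group, and in the other by the second intron of AG joined to a minimal 35S promoter. RNA of GFP-positive nuclei, sorted from pooled inflorescences, was sequenced in 3 libraries labelled AP3 (X13, X16 and X74). The other 3 were labelled AG (X14, X71 and X26), and values per library are given in these orders. AP3 is the homeotic gene of petals and stamens and AG that of stamens and carpels, so both groups can hold nuclei of the stamen whorl.

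The libraries held 28808948 to 42089156 counts over genes. The AP3 transcript was at 126 to 239 CPM (counts scaled to a common library size after TMM normalization) in the libraries labelled AP3 and at 12.2 to 58.1 CPM in those labelled AG, a log2 fold change (AP3/AG) of 2.36 with an adjusted p of 0.0216 from edgeR. That call was lost without X16, without X71 and in the 4 libraries other than X74 and X71. UFO, a floral gene active in the domain of AP3, was at 63.8 to 66.5 CPM in the libraries labelled AP3 and 3.05 to 7.60 CPM in those labelled AG, 12.2-fold apart, and was called in all 15 alternatives. SEP3 was also called higher in AP3 (adjusted p = 0.0337), a call lost without X16, X74 or X71 and in those 4 libraries, and PI was not called (adjusted p = 0.0531). The AG transcript went against the labels, at 41.5 to 94.3 CPM in the libraries labelled AP3 and 14.2 to 41.2 CPM in those labelled AG, with an adjusted p of 0.141. X74 and X71, which are not in the authors' normalized table, had reads in 26717 and 26489 genes, against 22923 to 23439 in the others. Markers of vascular cells differed between the labels when summed. The summed level of the 6 phloem markers was 9.50 to 12.2 CPM in the libraries labelled AP3 and 69.1 to 122 CPM in those labelled AG, and that of the 6 procambium markers was 181 to 241 and 514 to 553 CPM. The 7 xylem markers summed to 29.2 to 34.8 CPM and 58.0 to 65.8 CPM, although CESA4 and CESA7, of the secondary cell wall, overlapped between the groups (log2 fold changes of 0.03 and -0.44). Epidermis markers went the other way, at 3755 to 4853 CPM for the 5 genes in the libraries labelled AP3 and 1048 to 2267 CPM in those labelled AG. Most of this was PDF1, at 2897 to 3467 CPM and 583 to 1491 CPM, and LTP1 overlapped between the groups. Dividing cell markers summed to 4605 to 4767 CPM with the AP3 label and 2729 to 3552 CPM with the AG label. Most of this was CDC20.1 and CDC20.2, which edgeR did not call (adjusted p = 0.261 and 0.206), although DESeq2 called all 4 markers. The 5 carpel markers summed to 84.1 to 98.3 CPM and 47.4 to 82.2 CPM, most of it SPT, which is not confined to carpels. SHP1 went the other way, at 1.10 to 1.81 CPM in the libraries labelled AP3 and 3.43 to 3.95 CPM in those labelled AG, and no carpel marker was called by edgeR, although 2 had an unadjusted p under 0.05 and DESeq2 called 1. The 5 mesophyll markers summed to 1502 to 1935 CPM with the AP3 label and 1421 to 1883 CPM with the AG label, and none was called. Of these lists, 4 phloem, 5 xylem and 4 procambium genes were called higher in AG, against 6.40% of all genes tested. Called higher in AP3 were 2 epidermis genes (ATML1 and PDF1) and 1 of the 4 dividing cell genes (CYCB1;1), against 1.36% of all genes tested. The calls of CALS7, VND7, XCP1, ATML1, PDF1 and CYCB1;1 were lost when 1 library or another was left out. In bulk nuclei, fewer cells of a type and less RNA per cell cannot be told apart.

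The degron is the short stretch by which an Aux/IAA protein is held by its receptor, and its core is the tetrapeptide GWPP. A search of the RefSeq proteins found GWPP in 23 of the 29 Aux/IAA proteins, and in none of the isoforms of IAA20, IAA30, IAA31, IAA32, IAA33 and IAA34. The LxLxL motif that recruits TOPLESS was found in all of the 29 but IAA33. The 7 genes that differed between the domains, described below, all belonged to the 23 with GWPP. Their degron codons are shown because this is the part of the transcript that encodes contact with the receptors measured beside them. The sequences are those of the TAIR10.1 reference (RefSeq), the 27 bases are read 5′ to 3′ on the gene's own strand, and capitals mark the codons of GWPP.
IAA28: ccagtggtgGGATGGCCGCCGgtgaga
IAA1: caaatcgttGGATGGCCTCCAgtgaga
IAA13: caagttgttGGATGGCCTCCTataggg
IAA7: caagtggtgGGATGGCCACCTgtgagg
IAA26: ccagtggtgGGTTGGCCTCCGgttcgt
IAA16: caagttgtgGGATGGCCACCGgtacga
IAA17: caagttgtgGGATGGCCACCGgtgaga
They lie at chr5:9033812-9033838 (plus strand), chr4:8361436-8361462 (plus strand), chr2:14115236-14115262 (minus strand), chr3:8195568-8195594 (plus strand), chr3:5613665-5613691 (minus strand), chr3:1289733-1289759 (minus strand) and chr1:1136938-1136964 (plus strand), each within 1 coding exon. The plants were Ler, whose own sequence was not read here.

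Of the 33 genes tested, 7 were called at an adjusted p under 0.05, against 7.76% of all 20013 genes tested. All 7 were Aux/IAA genes. IAA1, IAA7, IAA13, IAA16, IAA26 and IAA28 were higher in the libraries labelled AG (background 6.40%), and IAA17 was higher in those labelled AP3 (background 1.36%). Over the 27 Aux/IAA genes tested the median log2 fold change (AP3/AG) was -0.66, against 0.03 over all genes, and 20 of the 27 were negative against 46.8% of all genes. The 3 libraries labelled AG were all above the 3 labelled AP3 for 15 of the 27 (background 15.0%), and the reverse held for IAA17 alone. The background for groups that do not overlap in either direction was 25.9%. The remaining 11 overlapped. None of the 6 receptors was called.

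**Figure D1:**
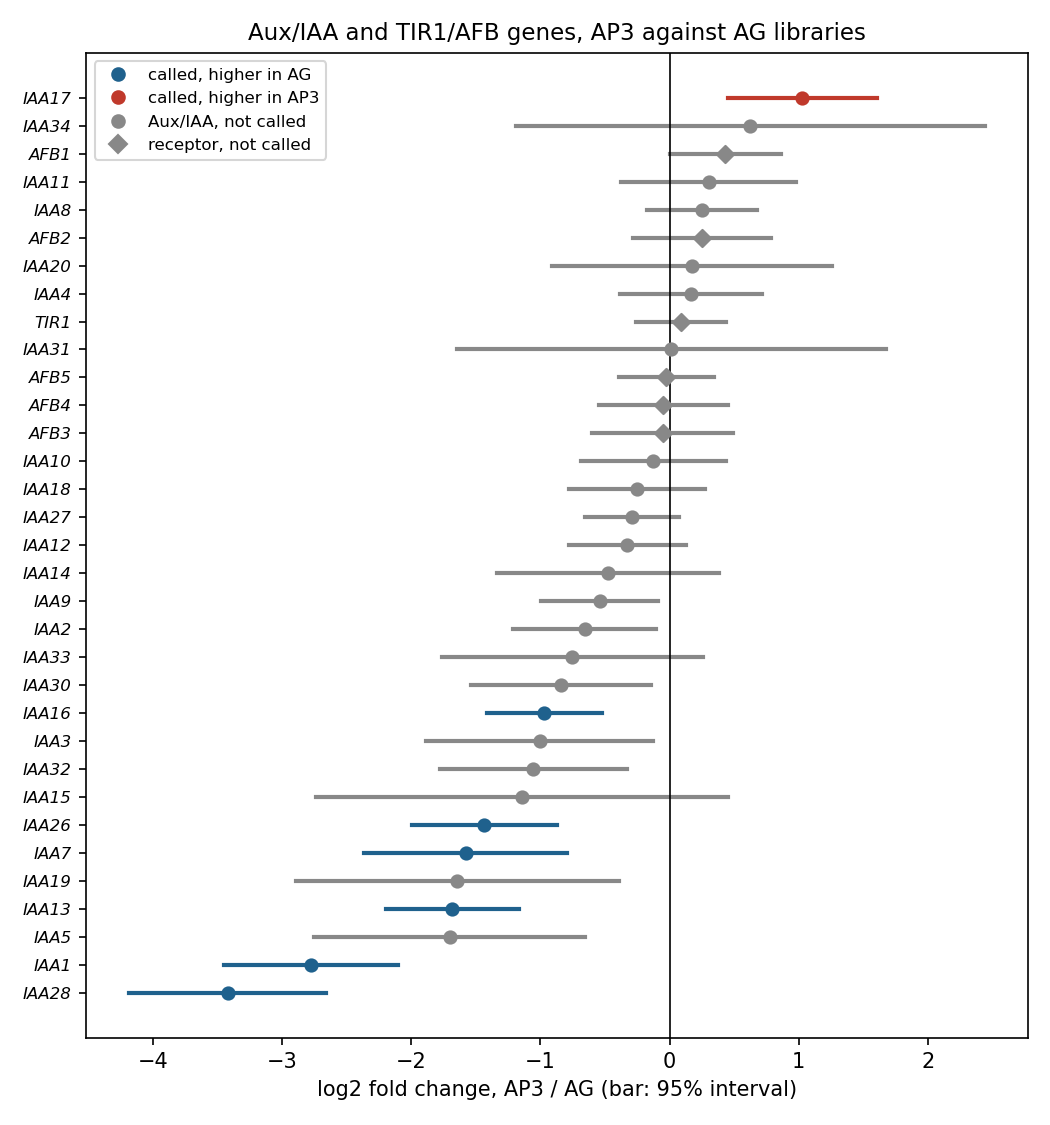
Log2 fold change (AP3/AG, x axis) of the 27 Aux/IAA genes (circles) and 6 receptor genes (diamonds) that were tested, with 95% intervals from edgeR as bars. The 6 genes called higher in AG (blue) lie between -3.42 and -0.97, IAA17 (red) at 1.03, and the 6 receptors between -0.05 and 0.43.

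IAA28 and IAA1 had the largest differences of the Aux/IAA genes tested. IAA28 (AT5G25890), first known from a mutant with few lateral roots, was at 0.933, 1.45 and 0.829 CPM in the libraries labelled AP3 and at 11.9, 12.3 and 10.13 CPM in those labelled AG. It was low in every library labelled AP3 and the groups were far apart. The log2 fold change was -3.42 (95% interval -4.19 to -2.66, adjusted p = 0.000674), or 10.7-fold. IAA1 (AT4G14560), an early auxin-induced gene, was at 3.76, 3.09 and 3.32 CPM in the libraries labelled AP3 and at 27.3, 27.9 and 14.7 CPM in those labelled AG. X26 was the lowest of the libraries labelled AG and was still above every library labelled AP3. This gave a log2 fold change of -2.78 (-3.45 to -2.10, adjusted p = 0.000951).

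IAA13 (AT2G33310), a close relative of BODENLOS (IAA12), which represses the ARF MONOPTEROS, was at 18.3, 27.1 and 29.1 CPM in the libraries labelled AP3 and at 86.0, 90.3 and 62.6 CPM in those labelled AG. The groups did not overlap. The log2 fold change was -1.68 (-2.20 to -1.17, adjusted p = 0.00297). An antisense gene, AT2G33300, shares 1176 bases with IAA13 and was listed at 0 in every library. Counting without strand cannot assign reads of the shared bases, so this 0 does not show that the antisense gene was silent. The calls of IAA28, IAA1 and IAA13 held in all 15 alternative analyses.

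IAA26 (AT3G16500), also named PAP1 for its binding to phytochrome, was the most abundant of the genes that differed. It was at 50.0, 62.6 and 92.3 CPM in the libraries labelled AP3 and at 157, 214 and 183 CPM in those labelled AG. The groups did not overlap, and X74 was the closest of its group to the libraries labelled AG. This gave a log2 fold change of -1.44 (-1.998 to -0.87, adjusted p = 0.00904), and without X16 the adjusted p was 0.0583.

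IAA7 and IAA16 are close relatives, and gain-of-function mutants of IAA7 (AXR2) resist auxin. IAA7 (AT3G23050) was at 6.04, 9.93 and 16.7 CPM in the libraries labelled AP3 and at 27.5, 29.9 and 40.3 CPM in those labelled AG. IAA16 (AT3G04730) was at 44.3, 47.8 and 65.8 CPM in the libraries labelled AP3 and at 90.7, 113 and 106 CPM in those labelled AG. For both genes X74 was the highest library labelled AP3, and for neither did the groups overlap. The log2 fold changes were -1.58 (-2.36 to -0.79, adjusted p = 0.0251) for IAA7 and -0.97 (-1.42 to -0.53, adjusted p = 0.0180) for IAA16. Leaving out X13, X16, X71 or X26 ended the call of IAA7, with adjusted p-values of 0.0518, 0.113, 0.0576 and 0.0814. Leaving out X13, X16 or X71 ended that of IAA16, with 0.0709, 0.100 and 0.0645.

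IAA17 (AT1G04250), known as AXR3 from auxin-resistant mutants, was the only gene called higher in AP3. It was at 17.3, 23.0 and 24.9 CPM in the libraries labelled AP3 and at 13.9, 9.69 and 8.37 CPM in those labelled AG. The groups did not overlap, though X13 and X14 were near each other. The log2 fold change was 1.03 (0.45 to 1.603, adjusted p = 0.0409). The sign was kept in all 15 alternatives, but the call was held in only 8 of them. It was lost without X16 (adjusted p = 0.145), X74 (0.103), X71 (0.133) or X26 (0.103), and in the 4 libraries other than X74 and X71 (0.253).

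**Figure D2:**
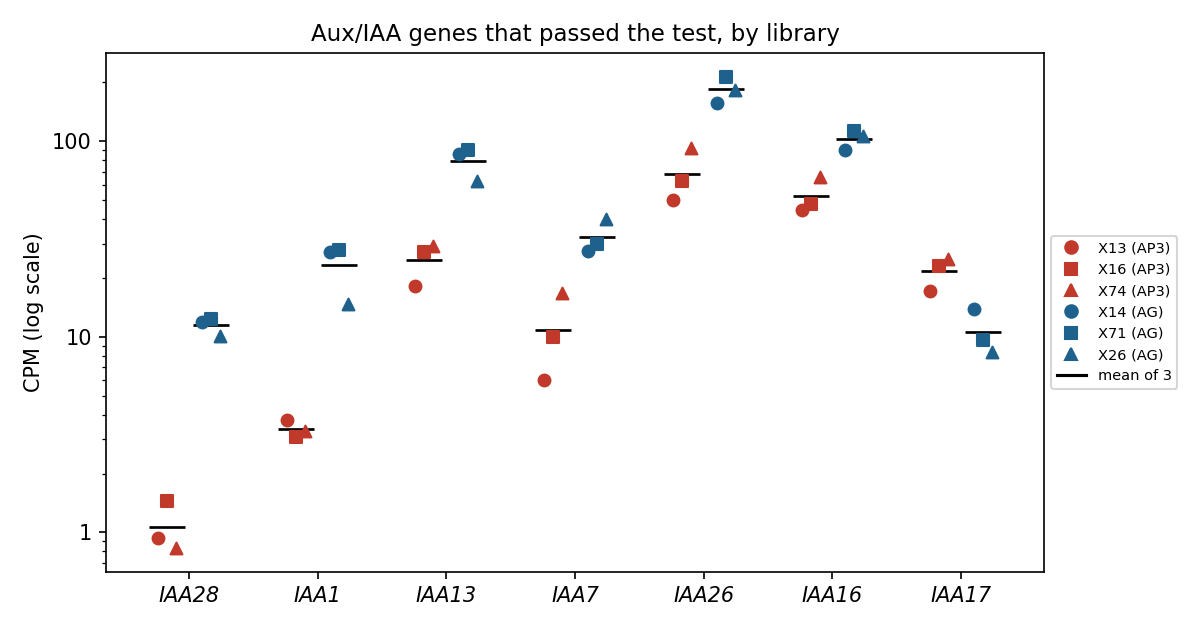
CPM on a log axis of the 7 Aux/IAA genes called by edgeR, with 1 point per library (red, labelled AP3; blue, labelled AG) and a black bar at the mean of 3. For IAA28 the libraries labelled AP3 sit at 0.829 to 1.45 CPM and those labelled AG at 10.13 to 12.3 CPM, while for IAA17 the order is reversed.

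The 7 calls had the same direction in X74 against X71, the pair of libraries that the authors' normalized table leaves out. This had to be so, because both libraries were in the fit and the groups did not overlap for any of the 7. The direction is thus no separate support, and only the sizes are described. IAA28 was 14.8-fold higher in X71 than in X74, IAA1 8.41-fold and IAA13 3.102-fold. The ratio was 1.71 for IAA16 and 1.79 for IAA7, and IAA17 was 2.57-fold higher in X74. These ratios rest on 1 library of each label and have no test of their own. The summed phloem, xylem and procambium markers were higher in the same libraries as the 6 genes called higher in AG, though CESA4 and CESA7 of the xylem list were not. The summed epidermis and dividing cell markers, and each of the floral genes AP3, PI, AG, UFO and SEP3, were higher in the same libraries as IAA17. Their part in these differences was not tested.

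Among the 20 Aux/IAA genes that did not pass the test, 9 had all libraries labelled AG above those labelled AP3. These were IAA2, IAA3, IAA5, IAA9, IAA19, IAA27, IAA30, IAA32 and IAA33, with log2 fold changes from -1.70 for IAA5 (adjusted p = 0.0591) to -0.29 for IAA27 (adjusted p = 0.383). The background of 15.0% is over all genes tested, called genes included. The share among genes not called was not measured, so the 9 have no like background. IAA5 and IAA19, both known as auxin-induced genes, were low throughout. IAA5 was at 0.455 to 0.576 CPM in the libraries labelled AP3 and 1.55 to 1.79 CPM in those labelled AG, and IAA19 at 0.494 to 2.65 and 4.31 to 5.39 CPM. DESeq2 called IAA5, IAA19 and IAA32, so that it called 10 Aux/IAA genes where edgeR called 7, against 12.2% of all genes. The other 11 overlapped, with log2 fold changes from -1.14 for IAA15 (-2.73 to 0.46) to 0.62 for IAA34 (-1.19 to 2.44). IAA6 and IAA29 had too few reads for the test. IAA6 had 0, 2 and 1 counts in the libraries labelled AP3, and 10, 14 and 8 in those labelled AG, whereas IAA29 had 2 to 9 counts in every library with no separation.

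The family spanned a wide range of levels per gene length. IAA8 was the highest, at a mean of 126 CPM per kb over the 6 libraries, and IAA9 followed at 110 CPM per kb, then IAA26 at 48.6 CPM per kb. IAA29 was the lowest at 0.107 CPM per kb, and 5 genes were under 1 CPM per kb while 8 were over 20. IAA8 and IAA9 encode the longest Aux/IAA proteins, with a long stretch ahead of the degron. IAA8 (AT2G22670) was at 364, 334 and 294 CPM in the libraries labelled AP3 and at 308, 284 and 242 CPM in those labelled AG. The groups overlapped, and the log2 fold change was 0.25 (-0.18 to 0.68, adjusted p = 0.552). IAA9 (AT5G65670), whose tomato counterpart acts in leaf shape and fruit set, was at 228, 299 and 312 CPM in the libraries labelled AP3 and at 392.3, 449 and 380 CPM in those labelled AG. The groups did not overlap, and the log2 fold change was -0.54 (-0.99 to -0.09, adjusted p = 0.163).

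The make-up of the Aux/IAA pool was followed as each gene's share of the summed CPM per kb. The sum over the 29 genes was 469 ± 48.8 CPM per kb (SD, n = 3) with the AP3 label and 630 ± 48.4 (SD, n = 3) with the AG label. IAA8 and IAA9 together made up 53.2%, 49.7% and 42.7% of it in the libraries labelled AP3, and 39.9%, 38.5% and 38.2% in those labelled AG. X74 was thus nearer to the libraries labelled AG than X13 and X16 were. The 6 genes called higher in AG together made up 11.4%, 12.3% and 15.3% of the pool in the libraries labelled AP3, and 26.04%, 29.2% and 28.4% in those labelled AG, a description that their choice fixes. IAA26 alone went from 4.58% to 6.85% in the libraries labelled AP3 to 9.54% to 12.2% in those labelled AG. IAA27 and IAA12 held similar shares in both, at 8.26% to 8.64% and 6.51% to 7.73% in the libraries labelled AP3 and at 7.30% to 8.51% and 6.03% to 7.497% in those labelled AG.

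**Figure D3:**
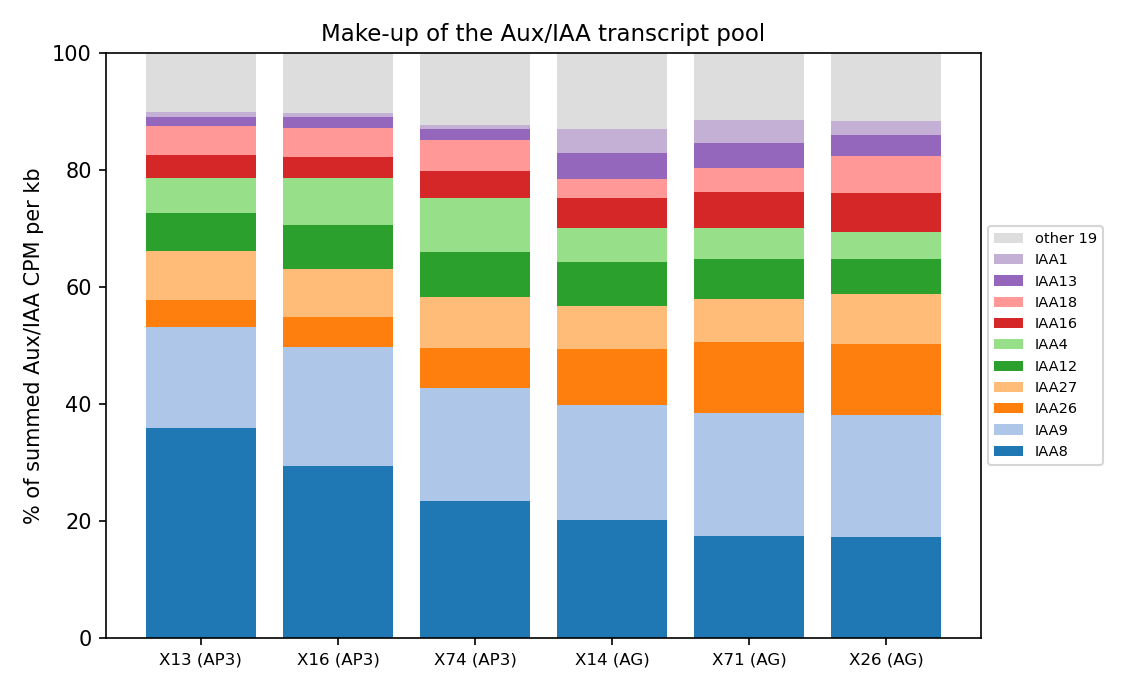
Share of the summed Aux/IAA CPM per kb (y axis, %) taken by the 10 most abundant members and by the other 19 genes together, with 1 bar per library. IAA8 takes 23.5% to 35.9% in the libraries labelled AP3 and 17.3% to 20.12% in those labelled AG, and IAA26 takes the larger share in those labelled AG.

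The 6 genes without GWPP are thought to escape the fast turnover that auxin brings to the rest, as IAA20, IAA30 and IAA31 are known to be long-lived. They were a small part of the pool, summing to 9.77, 10.4 and 15.0 CPM per kb in the libraries labelled AP3 and to 22.5, 16.0 and 12.4 CPM per kb in those labelled AG. X74 and X26 overlapped in this sum. The 23 genes with GWPP summed to 410, 459 and 503 CPM per kb in the libraries labelled AP3 and to 610, 661 and 568 CPM per kb in those labelled AG. None of the 6 was called by edgeR (background 7.76%), 2 had an unadjusted p under 0.05 (background 19.7%) and DESeq2 called IAA32 (background 12.2%), so that 6 genes are too few to set these counts apart from all genes.

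IAA30 (AT3G62100) was at 5.05, 4.54 and 6.05 CPM in the libraries labelled AP3 and at 12.3, 9.10 and 6.61 CPM in those labelled AG, a log2 fold change of -0.84 (-1.54 to -0.14, adjusted p = 0.162). The groups were separate, with X74 and X26 close together. Its sister IAA20 was at 2.94, 4.67 and 8.88 CPM and at 7.38, 4.12 and 3.15 CPM in the same order, and the groups overlapped throughout (0.17, -0.91 to 1.26). IAA32 was at 2.77, 2.73 and 3.69 CPM and at 7.71, 6.16 and 5.29 CPM, with no overlap (-1.06, -1.78 to -0.33, adjusted p = 0.0879). IAA32 and IAA34 are known for their role in the apical hook. IAA33 was at 0.988, 0.921 and 0.829 CPM in the libraries labelled AP3 and at 1.36, 1.84 and 1.42 CPM in those labelled AG, a difference of -0.75 on the log2 scale (-1.76 to 0.26). IAA31 was at 0.851, 0.953 and 0.214 CPM in the libraries labelled AP3 and at 1.18, 0.356 and 0.472 CPM in those labelled AG. IAA34 was at 0.357, 0.132 and 0.695 CPM and at 0.443, 0.119 and 0.220 CPM in the same order. Both overlapped between the groups and their intervals, -1.65 to 1.67 and -1.19 to 2.44, were too wide to show a direction. IAA32 shares 826 bases with an antisense gene and IAA34 shares 156 bases with a gene on the same strand, and counting without strand leaves their values less certain.

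The balance between closely related Aux/IAA genes was compared next. Protein alignment gave 11 pairs of mutual nearest relatives among the 35, and in 10 of them both genes were tested. Nearness was the number of identical residues over the length of the shorter protein, and another measure gives other pairs. By percent identity over aligned residues, IAA8 and IAA9 (60.55%) and IAA10 and IAA11 (55.46%) are also mutual nearest relatives. Their ratios were not compared. The log2 ratio of the first gene to the second was compared by a two-sided exact permutation test, in which 3 against 3 libraries cannot go below p = 0.10 and none passed. IAA1 and IAA2, 79.5% identical in protein, stood in opposite orders in the groups. IAA1 was at 0.496, 0.653 and 0.469 times the level of IAA2 per kb in the libraries labelled AP3 and at 2.67, 2.59 and 1.52 times in those labelled AG. IAA12 was 4.58, 4.01 and 4.22 times as high as IAA13 per kb in the libraries labelled AP3, and 1.69, 1.58 and 1.71 times in those labelled AG. IAA13 shares 1176 bases with an antisense gene, and reads there cannot be assigned without strand. Its level per kb may thus be too low and these ratios too high, so which gene is higher with the AG label is uncertain. IAA18 and IAA26 were close to each other in the libraries labelled AP3, at ratios of 1.10, 0.952 and 0.789, while in those labelled AG IAA18 was at 0.338, 0.338 and 0.532 of IAA26. These pairs, with IAA3/IAA4 and IAA7/IAA14, are the 5 whose ratios did not overlap (exact p = 0.10, adjusted p = 0.20 over the 10 pairs). IAA1, IAA7, IAA13 and IAA26 were already called in the same libraries, so the ratios of their pairs largely restate those fold changes. How often ratios of other gene pairs do not overlap was not measured. The other 5, which include the 3 receptor pairs, overlapped.

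**Figure D4:**
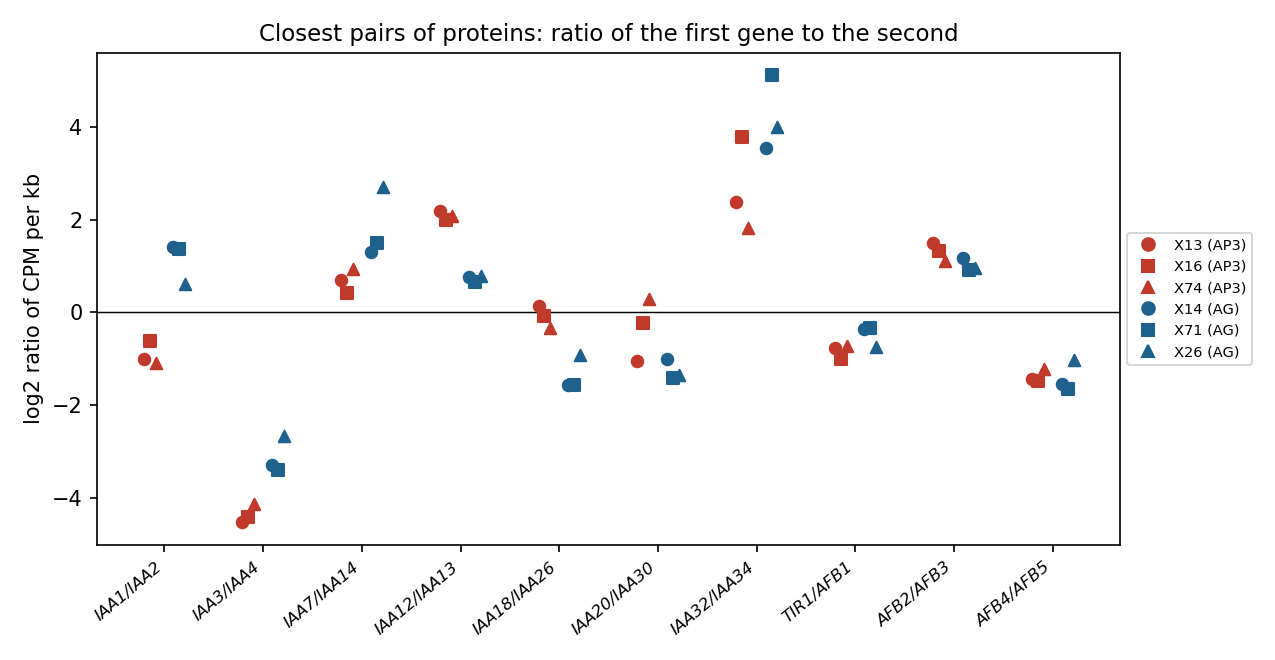
Log2 ratio of CPM per kb of the first gene to the second (y axis) in the 10 pairs of closest relatives that were tested, with 1 point per library (red, labelled AP3; blue, labelled AG). IAA1/IAA2 lies below 0 in the libraries labelled AP3 and above 0 in those labelled AG, and the receptor pairs overlap.

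Some of the genes are also neighbours. IAA3 and IAA17 lie 6388 bases apart on chromosome 1, IAA2 and IAA7 lie 12510 bases apart on chromosome 3, and IAA14 and IAA1 lie 10732 bases apart on chromosome 4. In each case the genes point away from each other with 1 annotated gene between them. The log2 fold changes, which were not tested against each other, were -1.01 for IAA3 and 1.03 for IAA17, -0.66 for IAA2 and -1.58 for IAA7, and -0.48 for IAA14 and -2.78 for IAA1. IAA3, at 1.70 to 6.32 CPM, shares 640 bases with an antisense gene, AT1G04230, at 20.45 to 29.9 CPM. Counting without strand leaves the values of IAA3 less certain.

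Auxin-induced Aux/IAA genes are known to carry auxin response elements, the sites of ARFs. The letters TGTCTC and TGTCGG were searched on both strands in the 250 bases ahead of each RefSeq gene start, and no stretch of letters can match both. TGTCTC was found ahead of 9 of the 29 Aux/IAA genes and of 10.95% of 27443 protein-coding genes, and TGTCGG ahead of 6 of the 29 and of 4.16%. At least 1 was found ahead of 13 of the 29 (44.8%), against 14.7% of all protein-coding genes, and ahead of AFB5 alone among the 6 receptors. Of the 7 genes that differed, IAA1, IAA13 and IAA16 had a match and IAA7, IAA17, IAA26 and IAA28 had none in this window. The windows of IAA1 and IAA13, with the largest differences among the called genes that had a match, are shown. They are on the gene's strand and end at the base before the gene start. Matched letters are in capitals (a match on the other strand reads GAGACA or CCGACA).
IAA1: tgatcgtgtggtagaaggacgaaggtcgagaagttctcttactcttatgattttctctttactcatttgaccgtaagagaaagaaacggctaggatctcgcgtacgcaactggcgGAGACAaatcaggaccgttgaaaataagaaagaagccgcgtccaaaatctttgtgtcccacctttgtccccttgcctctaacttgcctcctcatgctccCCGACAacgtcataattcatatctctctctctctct
IAA13: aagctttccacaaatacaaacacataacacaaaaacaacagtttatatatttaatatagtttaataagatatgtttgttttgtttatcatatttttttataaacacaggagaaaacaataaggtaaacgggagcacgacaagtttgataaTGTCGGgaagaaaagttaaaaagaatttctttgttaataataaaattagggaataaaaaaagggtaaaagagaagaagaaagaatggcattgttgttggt
They span chr4:8360746-8360995 (plus strand) and chr2:14116090-14116339 (minus strand) of TAIR10.1. The matches ahead of IAA1 start 135 and 36 bases upstream and that of IAA13 starts 100 bases upstream. A match of letters is not a measured site.

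The receptors were measured in the same libraries. Per kb of gene, AFB1 (42.5) and AFB2 (36.5) had the highest mean CPM, followed by AFB5 (27.2), TIR1 (26.5), AFB3 (16.2) and AFB4 (10.5), and the values of AFB5 and TIR1 overlapped. AFB1, AFB3 and AFB4 share bases with antisense genes, and reads there cannot be assigned without strand. Their levels per kb, and the receptor sum, may thus be too low. The sum over the 6 was 169 ± 12.9 CPM per kb (SD, n = 3) with the AP3 label and 150 ± 28.0 (SD, n = 3) with the AG label. The Aux/IAA sum was 2.33, 2.75 and 3.34 times the receptor sum in the libraries labelled AP3, and 4.49, 5.32 and 3.204 times in those labelled AG, so that X74 and X26 overlapped.

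TIR1 (AT3G62980), the founding auxin receptor, was at 108, 94.3 and 90.5 CPM in the libraries labelled AP3 and at 94.8, 88.4 and 91.8 CPM in those labelled AG. The groups overlapped and all 6 values lay close together. The log2 fold change was 0.09 with a 95% interval of -0.26 to 0.44 (adjusted p = 0.839). AFB1 (AT4G03190), known for fast responses of roots to auxin, was at 129, 134 and 105 CPM in the libraries labelled AP3 and at 85.7, 78.3 and 109 CPM in those labelled AG. Only X74 and X26 were out of order. This gave a log2 fold change of 0.43 (0.00 to 0.86, unadjusted p = 0.0494, adjusted p = 0.252).

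AFB2 (AT3G26810) and AFB3 (AT1G12820) act beside TIR1 in the same response. AFB2 was at 134, 121 and 117 CPM in the libraries labelled AP3 and at 94.6, 75.7 and 143 CPM in those labelled AG (0.25, -0.28 to 0.78, adjusted p = 0.656). AFB3 was at 38.3, 38.8 and 43.9 CPM in the libraries labelled AP3 and at 34.1, 32.6 and 59.0 CPM in those labelled AG (-0.05, -0.60 to 0.49, adjusted p = 0.945). In both genes X26 was the highest of all 6 libraries and X71 the lowest.

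AFB4 (AT4G24390) and AFB5 (AT5G49980) form the branch known for binding the synthetic auxin picloram. AFB4 was at 35.2, 31.3 and 31.5 CPM in the libraries labelled AP3 and at 29.7, 26.4 and 45.2 CPM in those labelled AG (-0.05, -0.55 to 0.45, adjusted p = 0.947). AFB5 was at 83.0, 77.1 and 64.7 CPM in the libraries labelled AP3 and at 76.1, 72.2 and 80.3 CPM in those labelled AG (-0.02, -0.39 to 0.34, adjusted p = 0.961). All groups overlapped. edgeR called none of the 6 receptors (background 7.76%), 1 had an unadjusted p under 0.05 (background 19.7%), and DESeq2 called none (background 12.2%). For 6 genes these counts are near the background. AFB4 shares 644 bases with an antisense gene, AT4G24380, which was at 1.89 to 5.07 CPM, and counting without strand cannot assign reads of that part. The longest antisense partners of AFB1 and AFB3, over 423 and 638 bases, had 0 counts in every library, which for the same reason does not show that they were silent. Over the 6, the intervals reached from -0.60 to 0.86 on the log2 scale.

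**Figure D5:**
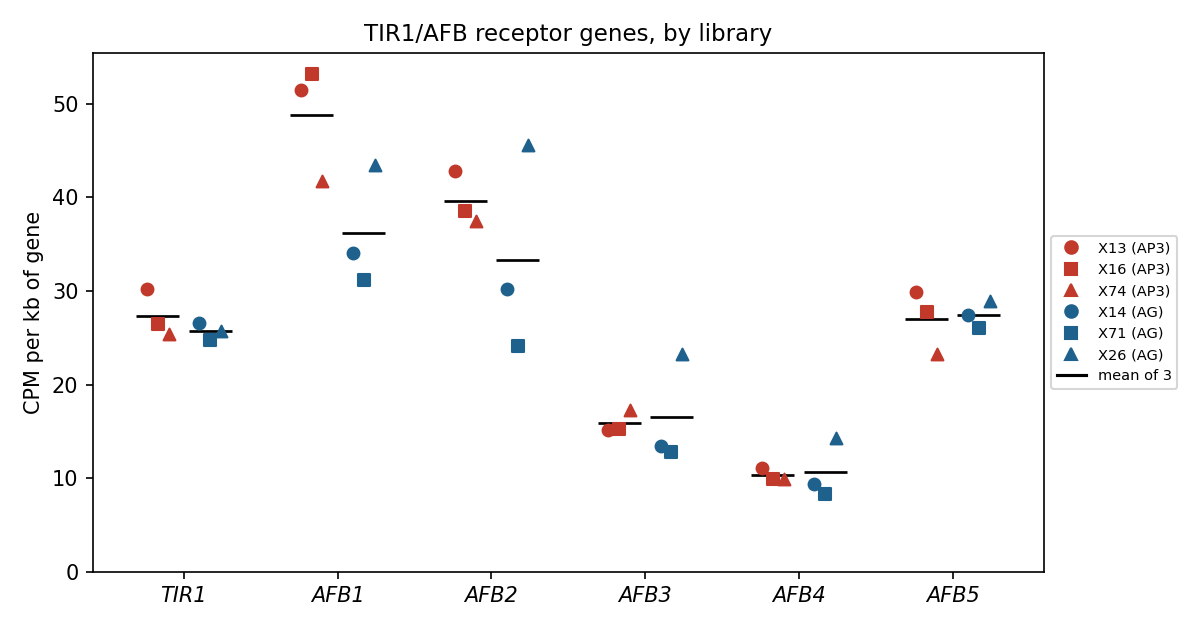
CPM per kb of gene (linear axis from 0) of the 6 receptor genes, with 1 point per library (red, labelled AP3; blue, labelled AG) and a black bar at the mean of 3. The groups overlap for every receptor, and X26 is the highest library for AFB2, AFB3 and AFB4.

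The microRNA miR393 is known to guide cleavage of receptor transcripts. Its mature 5p form, the same from both loci, is shown with its seed (bases 2 to 8) in capitals, above the best matching site in the coding exons of TIR1, AFB1 and AFB2, with capitals where a base pairs with the microRNA by the Watson and Crick rules. The site of AFB3 is the same as that of AFB2.
miR393a-5p: uCCAAAGGgaucgcauugaucc
TIR1: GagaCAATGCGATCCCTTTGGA
AFB1: GagaCcATGCGATCCCTTTGGA
AFB2: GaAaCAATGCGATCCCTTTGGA
The sites lie at chr3:23273727-23273748 (minus strand), chr4:1405341-1405362 (minus strand), chr3:9870237-9870258 (plus strand) and, for AFB3, chr1:4369085-4369106 (minus strand) of TAIR10.1. Of the 22 bases, 19 paired in TIR1, 18 in AFB1 and 20 in AFB2 and AFB3, against 15 in the best site of AFB4 and 14 in that of AFB5. The primary transcripts of miR393 were barely read. MIR393A had 0 to 2 counts in every library. MIR393B had 2, 1 and 6 counts in the libraries labelled AP3, and 12, 9 and 12 in those labelled AG. The groups did not overlap, but the log2 fold change of -2.04 (-3.83 to -0.25) had an adjusted p of 0.185. Mature miR393 was not measured in these libraries.

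The partners of the repressors and receptors were counted from lists of the pathway. Of 23 ARF genes, 15 were tested and edgeR called none, with a median log2 fold change of -0.05, and 3 had an unadjusted p under 0.05 and DESeq2 called 2, shares near the 19.7% and 12.2% of all genes. ARF6 (AT1G30330), which promotes floral organ maturation, had -0.92 (adjusted p = 0.0511) and ARF3 (AT2G33860), known as ETTIN in the carpel, had -0.69 (adjusted p = 0.0583). None of the 4 SCF core genes (median 0.34) and none of the 5 TOPLESS genes (median -0.07) was called by edgeR or by DESeq2, and at an unadjusted p under 0.05 there were 0 and 1.

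The GH3 genes encode enzymes that join auxin to amino acids, and several are induced by auxin. Of 8, 6 were tested and 5 were called, in both directions, against 7.76% of all genes tested (1.36% higher in AP3 and 6.40% higher in AG). GH3.2 (AT4G37390) was at 44.2, 37.6 and 36.4 CPM in the libraries labelled AP3 and at 18.0, 7.14 and 10.6 CPM in those labelled AG (1.73, adjusted p = 0.0111). GH3.3 (AT2G23170) was likewise higher in AP3 (1.55, adjusted p = 0.00461), as was GH3.5 (AT4G27260; 1.08, adjusted p = 0.0215). The call of GH3.5 was lost without X13, X14 or X71, with adjusted p-values of 0.0667, 0.0553 and 0.0549, and in the 4 libraries other than X74 and X71 (0.0936). GH3.6 (AT5G54510) was at 10.8, 7.46 and 12.5 CPM in the libraries labelled AP3 and at 28.1, 47.3 and 74.3 CPM in those labelled AG (-2.28, adjusted p = 0.00564). GH3.9 (AT2G47750) was also higher in AG (-2.29, adjusted p = 0.00328). The groups did not overlap for any of the 5 GH3 genes called (background 25.9%). These genes were picked by a test on the same libraries, so this is no separate support.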

How the data were processed

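RNA of GFP-positive nuclei was measured in 6 libraries, each made with a low-input cDNA kit from sorted nuclei. The authors mapped reads to TAIR10 with STAR 2.7.0b, keeping unique alignments, and deposited raw counts of read pairs per gene for each library. Per the file headers, featureCounts 1.6.0 counted whole genes, introns included, without strand, so reads of overlapping and antisense partners cannot be told apart. The authors' variance stabilized table of 4 libraries (log2-like values, DESeq2) was not used. No column was left unmapped (0).

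Organelle genes were dropped, and a gene needed over 10 reads in 2 or more libraries. edgeR 4.0.16 (R 4.3.3), a quasi-likelihood test with TMM scaling and Benjamini-Hochberg adjustment over 20013 genes, gave all p-values for genes, and DESeq2 1.42.0 was an alternative. Intervals are 95% intervals from the test's F statistic. CPM used TMM library sizes, and CPM per kb divided them by the counted gene length. Bases shared with another gene were kept in that length. Motifs, proteins (longest isoform, BLOSUM62, gap penalties 11 and 1) and sequences came from RefSeq TAIR10.1, in which all 35 genes had the coordinates of the count files. The authors call their domain libraries biological replicates, but the labels do not say which plants each library came from. The p-values therefore measure the spread between these libraries, and all pairs differed by more than counting error.

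The members and lists were chosen with earlier results of these data known. Values per library are given for all receptors, for Aux/IAA genes that were called, lack GWPP or are among the 3 most abundant per kb, and other members are given by fold change or range. Other genes named are AP3, AG, the miR393 transcripts and 2 to 4 list members by lowest adjusted p. The 5 GH3 genes called, UFO, SEP3, PI and the markers named for a lost call, an overlap or their direction fall outside this rule and were chosen after their values were seen.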

Additional observations from a re-analysis of the deposited data

How the results depend on the processing

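Over 15 alternatives to the main analysis, no called gene changed sign. DESeq2 called 2435 of all genes (1554 in the main test), and edgeR called 1022 in the 4 libraries of the deposited table. Leaving out 1 library gave 737 (without X16) to 1480 calls over all genes, with 953 without X13 and 981 without X71, and 3 (without X16) to 7 members and Aux/IAA genes called, with 4 without X71. Outside these, 6 to 10 members were called. IAA1, IAA13 and IAA28 were called in every alternative, IAA26 in 14, IAA16 in 12, IAA7 in 11 and IAA17 in 8. No receptor was called in any. Among the ARF genes, where the main test called 0, DESeq2 and upper quartile scaling each called 2, and filterByExpr, no filter beyond 1 read and DESeq2 on the 4 libraries each called 1. Leaving out 1 library gave 0 to 1 ARF calls, the 1 without X14. The analysis of the 4 libraries with DESeq2 was chosen after seeing the data. No paired analysis was possible because the labels give the libraries no shared replicate numbers. A block of library codes (X74 with X71, X26 alone, the other 3 together) called 6 members, without IAA17. Being alone in its block, X26 adds nothing to the comparison of the labels in that fit. Other scalings moved the median of all genes by less than 0.03 on the log2 scale. Depth limits IAA6, IAA29 and the miR393 transcripts, which had under 15 counts in each library.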
